A study of Homo sapiens with 8 samples.

Results

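The response of HCC44 cells to ACBI1 was described across all measured genes. HCC44 is an established human lung adenocarcinoma cell line, labelled wild type in the series. The response was read from 4 of the 8 RNA libraries of the series, chosen by their labels: 2 from HCC44 cultured with ACBI1 and 2 from HCC44 cultured with the solvent DMSO, both for 96 hours. The other 4 libraries came from H1975, a second lung cancer line given the same treatments. The labels state the concentration of ACBI1 as 1 mM, which is far above the usual range for degraders, so the unit is uncertain. One of the HCC44 ACBI1 libraries, replicate 2, carries an abbreviated compound name in its title. Nothing in the labels says whether replicates came from separate cultures, so p-values measure only the spread between these samples, which may be technical.

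ACBI1 is a bifunctional degrader. One end holds on to bromodomains, which SMARCA2, SMARCA4 and PBRM1 carry, and the other recruits the VHL ubiquitin ligase, which marks these proteins for destruction. SMARCA2 and SMARCA4 are the alternative motors of SWI/SNF complexes, which use ATP to move nucleosomes and keep enhancers open. PBRM1 is a subunit of the PBAF form. Genes that depend on distal enhancers, such as those answering AP-1, are known to be sensitive to loss of these motors.

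Counts assigned to genes totalled 63877072 to 70455517 per HCC44 library. Levels are given as CPM, counts scaled to a library of 1000000 with TMM factors, and compare libraries, not genes, since they are not divided by length. Fold changes are log2 ratios of ACBI1 over DMSO with a standard error. Each p was computed with edgeR (quasi-likelihood F-test) and adjusted by Benjamini-Hochberg over 21307 genes. A gene is called risen or fallen at an adjusted p under 0.05. Replicates correlated at 0.9937 with DMSO and 0.9923 with ACBI1 (log2 CPM, across genes), and DMSO with ACBI1 libraries at 0.9683 to 0.9737. Among 11426 genes reaching 5 CPM in either group mean, the DMSO replicates differed by more than 1.5-fold for 251 genes, the ACBI1 replicates for 529 and the group means for 2928. Of the genes named here, 29 share at least 10% of their exonic bases with another gene in GENCODE release 29, and their counts are uncertain because the strand setting of the counting is not given. They are BCL7C, SMARCD3, SLC1A5, FTH1, SQSTM1, CP, JUNB, MAFK, PHLDA1, PLK1, FOXM1, MCM2, TYMS, RRM2, BCL2L1, DDIT3, HMGCS1, FDPS, ACAT2, IDI1, NQO1, TIMP4, TGFB2, GATA6, IGFBP7, XAF1, HLA-B, CIITA and PSMB10. CCDC74A and CCDC74B, the metallothioneins and the ferritins have near-identical copies, and PIK3CD-AS2 is antisense to another gene, so these are uncertain too.

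General epithelial markers were present in HCC44 and most lung lineage markers were not. All 7 general epithelial markers reached 1 CPM in at least one HCC44 library, and their summed level was 963 to 1000 CPM with DMSO and 1210 to 1670 CPM with ACBI1. The higher sum came mostly from KRT7, at 423 and 459 CPM with DMSO and 751 and 1122 CPM with ACBI1. Of the 7 markers 2 were called as risen and 2 as fallen, and KRT8 went from 228 and 205 to 146 and 157 CPM. Of 11 lung epithelial markers only ABCA3 and LPCAT1 reached 1 CPM in any HCC44 library. NKX2-1, the defining lung lineage factor, was at 0.032 CPM or less, and SFTPA1, SFTPC and SCGB1A1 had no counts. Markers of leukocytes summed to 4.17 to 4.24 CPM with DMSO and 1.79 to 2.39 CPM with ACBI1, with CD3E, CD3D and MS4A1 at 0. The lower sum came mostly from CD14, at 3.43 and 3.32 CPM with DMSO and 0.72 and 1.39 CPM with ACBI1. CSF1R went the other way, from 0.445 and 0.455 to 0.88 and 0.881 CPM. Of the 4 leukocyte markers tested 1 was called as risen and 1 as fallen. Markers of endothelium summed to 3.73 to 4.74 CPM with DMSO and 1.15 to 1.51 CPM with ACBI1. In bulk RNA, fewer cells of a kind and less RNA per cell cannot be told apart.

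The transcripts of the 3 proteins that the compound targets did not pass the test, and they cannot check the labels because the compound acts on protein. SMARCA4 stood at 317 and 300 CPM in the DMSO libraries and at 308 and 353 CPM in the ACBI1 libraries (adjusted p 0.437). SMARCA2 stood at 58.9 and 58.7 CPM and at 68.1 and 53.8 CPM, groups that overlap (adjusted p 0.79). PBRM1 was at 99.9 and 97.4 CPM and at 91.6 and 90 CPM (adjusted p 0.432). The direction of the SMARCA2 and SMARCA4 values depended on a single library: SMARCA2 was at -0.127 on the log2 scale without ACBI1 replicate 1 and SMARCA4 at -0.001 without ACBI1 replicate 2.

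Some other SWI/SNF subunits did pass it. Of 27 subunits tested 7 rose and 3 fell, that is 25.9% and 11.1%, where 17.5% of all tested genes rose and 17.4% fell. ARID1B, a DNA-binding subunit of the BAF form, rose from 59.8 and 57.7 to 131 and 153 CPM (log2 fold change 1.27 ± 0.12, adjusted p 2.62e-05). ARID2, its counterpart in PBAF, rose from 43.2 and 41.5 to 70.1 and 70.1 CPM, and SMARCC2, a core scaffold subunit, from 91.8 and 83.6 to 137 and 139 CPM. In each of these 3 genes both ACBI1 libraries lay above both DMSO libraries, which the rule for naming them required, so this adds no support. The libraries of the groups do not overlap for 66.8% of all tested genes. BCL7C (0.94) and SMARCD3 (0.79) also rose. The actin-like subunit ACTL6A fell from 156 and 164 to 124 and 110 CPM, and the reader subunit DPF2 by 0.45 on the log2 scale. With library totals in place of TMM factors 12 subunits rose.

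The response reached 7438 of 21307 tested genes, or 34.9%, with 3720 risen and 3718 fallen. The shares of all tested genes called, 17.5% risen and 17.4% fallen, are the background for every count of list members given here. A change of at least 1 on the log2 scale was reached by 1874 risen and 1263 fallen genes, together 14.7% of those tested. With library totals the split of calls was 4534 risen and 2964 fallen, that is 60.5% risen against 50%, and the median gene moved by 0.091 on the log2 scale. The count of calls was 4945 without DMSO replicate 2. Few genes crossed between at least 5 CPM and under 1 CPM, which need not be a complete loss or gain. In 23 genes both DMSO libraries had at least 5 CPM and both ACBI1 libraries under 1 CPM. The reverse held for 7 genes, among them the neuronal chromatin remodeller CHD5, the vesicle GTPase RAB39B and the ligand WNT10B.

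**Figure D1:**
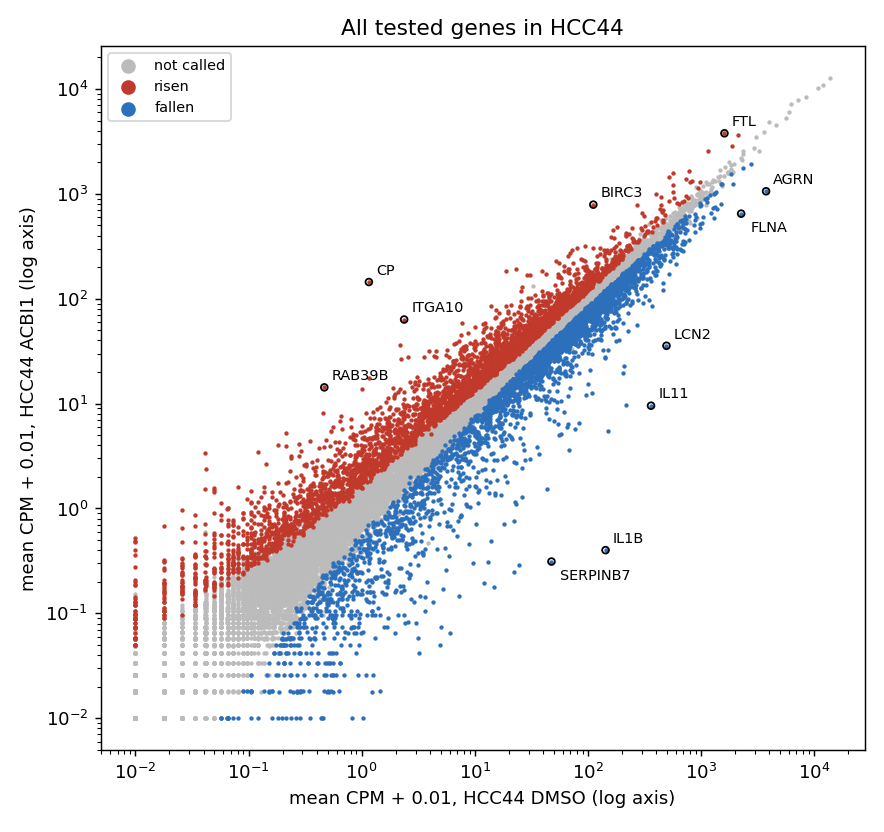
Mean level of every tested gene in HCC44 with DMSO (horizontal) and ACBI1 (vertical), both as TMM-scaled CPM plus 0.01 on log axes, with 1 point per gene coloured by its call. The 3720 risen and 3718 fallen genes lie on either side of the diagonal, and IL1B and SERPINB7 lie far below it.

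Measured in CPM, the 6 largest losses and 6 largest gains were in genes of different kinds. AGRN, which encodes the basement membrane proteoglycan agrin, fell from 3789 and 3761 to 956 and 1161 CPM (log2 fold change -1.84 ± 0.11, adjusted p 2.12e-06). FLNA, the actin cross-linker filamin A, fell from 2141 and 2403 to 592 and 702 CPM. ENO1, a glycolytic enzyme, SLC1A5, a glutamine transporter, P4HB, a protein disulfide isomerase, and HMGA1, a chromatin protein, followed with log2 fold changes of -0.54, -1.16, -0.93 and -0.65. FTL, the ferritin light chain, rose from 1496 and 1737 to 3460 and 4093 CPM (1.22 ± 0.15, adjusted p 0.000225). FTH1, the heavy chain, had a log2 fold change of 0.78, the cytoplasmic actin ACTG1 1.15, the autophagy receptor SQSTM1 1.47 and the hair keratin KRT81 1.45, all called as risen. MYC, a transcription factor of growth, completed the 6 gains with 2202 and 1599 CPM with DMSO and 2886 and 2801 CPM with ACBI1 (0.58, adjusted p 0.00617), and was not called without DMSO replicate 2 (0.372).

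The 12 largest relative falls reached genes of several kinds. IL1B, a cytokine of the inflammasome pathway, went from 171 and 116 CPM to 0.608 and 0.173 CPM (log2 fold change -8.52 ± 0.44, adjusted p 1.25e-05), which became -9.68 when ACBI1 replicate 1 was left out and -7.88 when replicate 2 was. SERPINB7, a clade B serpin, went from 57.5 and 38 to 0.352 and 0.252 CPM (-7.30 ± 0.32). The receptor gene ADGRG3 went from 21.2 and 23.3 to 0.224 and 0.252 CPM, the lipase family gene PNPLA1 from 26 and 23.4 to 0.288 and 0.267 CPM, and the cystatin CST7 from 12.2 and 17.6 to 0.16 and 0.173 CPM. In all of these both ACBI1 libraries were below 1 CPM and both DMSO libraries above 10 CPM.

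C3AR1, the receptor for complement fragment C3a, had 372 and 401 counts with DMSO and 4 and 3 with ACBI1. The hair keratin KRT34 had 426 and 210 counts with DMSO and 8 and 0 with ACBI1. KRT34's fitted log2 fold change of -6.26 was -11.4 without ACBI1 replicate 1, since the library left has no counts, and -5.27 without ACBI1 replicate 2. AGT, the angiotensin precursor, had a log2 fold change of -5.73, PINLYP, a phospholipase inhibitor, -5.43 and the membrane mucin MUC13 -5.04. The non-coding KLHL30-AS1, whose counts are uncertain as antisense, had -6.04, and -9.43 without ACBI1 replicate 1.

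The largest relative rises were of genes low with DMSO. CP, the copper-carrying ferroxidase ceruloplasmin, went from 0.874 and 1.43 CPM to 69.2 and 219 CPM (6.97 ± 0.65, adjusted p 0.000255), and its log2 fold change became 7.57 when ACBI1 replicate 1 was left out and 5.91 when replicate 2 was. ITGA10, a collagen-binding integrin subunit, went from 2.37 and 2.37 to 55.7 and 71 CPM (4.74 ± 0.25, adjusted p 1.23e-06). RAB39B went from 0.493 and 0.423 to 20 and 8.57 CPM, with a log2 fold change of 4.95 that was 4.22 without ACBI1 replicate 1. The ACBI1 replicates thus lay apart for CP and RAB39B and close together for ITGA10.

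SPTSSB, a subunit regulator of sphingolipid synthesis, rose by 4.67 on the log2 scale, and the secreted glycoprotein OLFM2 by 4.05. CCDC74B and CCDC74A rose by 4.17 and 3.78, PIK3CD-AS2 by 3.94 and the small GTPase ARL14 by 3.57. The non-coding DIO3OS, also antisense, rose by 3.54 and by 2.42 without ACBI1 replicate 2. CHD5 went from 0.525 and 0.564 to 6.18 and 5.81 CPM. GLI1, the transcription factor and target of Hedgehog signalling, went from 2.43 and 2.73 to 19 and 36.8 CPM (3.43 ± 0.29, adjusted p 1.98e-05).

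**Figure D2:**
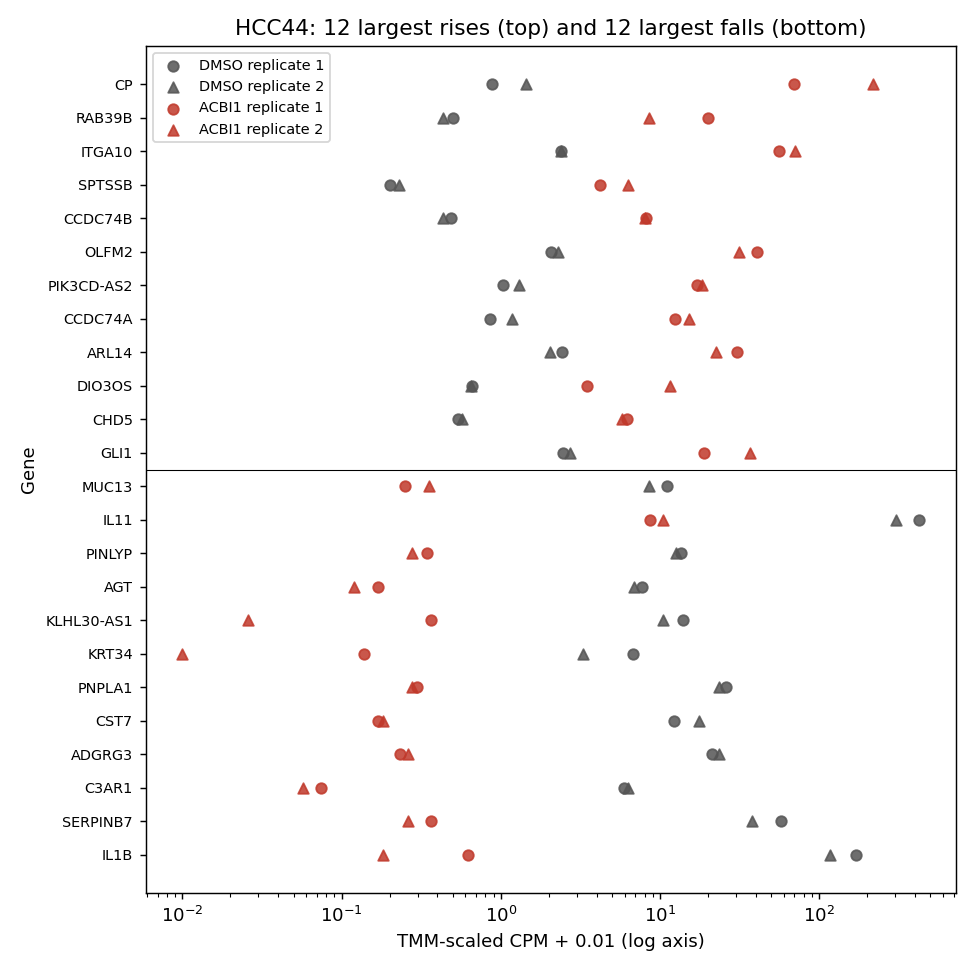
TMM-scaled CPM plus 0.01 (log axis) of the 12 genes with the largest rises and the 12 with the largest falls, with 1 point per HCC44 library, grey for DMSO and red for ACBI1, circles for replicate 1 and triangles for replicate 2. The DMSO and ACBI1 points lie apart in every gene because only genes with non-overlapping groups were chosen. The ACBI1 points of CP spread from 69.2 to 219 CPM.

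Some inflammatory cytokines were lost almost fully and others rose. In the IL-1 family 8 of 13 tested genes fell and 1 rose; the median was -0.476 on the log2 scale, and 0.006 over all tested genes. IL1A, the cell-associated sister of IL1B, went from 148 and 152 to 7.52 and 3.3 CPM (-4.80 ± 0.34, adjusted p 4.63e-05), and CASP1, the protease that activates IL1B and IL18, from 18.8 and 17.9 to 0.496 and 0.912 CPM. IL1A was at -5.50 without ACBI1 replicate 1. IL18 was the member that rose, from 5.21 and 8.01 to 16.2 and 22.9 CPM (1.56 ± 0.25). The count of fallen members became 5 when either DMSO replicate 2 or ACBI1 replicate 2 was left out.

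In the IL-6 family 4 of 13 members fell and 3 rose, 30.8% and 23.1% against 17.4% and 17.5% of all genes, with 1 to 6 risen under the alternatives tried. IL11 went from 422 and 303 to 8.71 and 10.4 CPM (-5.25 ± 0.20, adjusted p 5.15e-07). LIF, which signals through the same receptor chain, went the other way, from 145 and 178 to 298 and 289 CPM (0.86 ± 0.14, adjusted p 0.000754). OSM went from 11.1 and 11.1 to 4.94 and 3.46 CPM, CLCF1 from 15.3 and 16.4 to 9.03 and 9.79 CPM, and the receptor IL6R from 39.2 and 38.2 to 12.5 and 9.16 CPM. The ligands of this family that use a common receptor chain therefore stood on both sides of the DMSO level.

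CSF3, the granulocyte growth factor, went from 254 and 185 to 13.9 and 5.44 CPM (-4.50 ± 0.44, adjusted p 0.000297), and its value was -5.33 without ACBI1 replicate 1. Of 13 chemokines 4 fell and 2 rose (30.8% and 15.4%), with a median of 0.452, and 0 to 5 rose under the alternatives. The chemokine CCL20 fell from 56.5 and 33.7 to 9.46 and 11.4 CPM and the membrane chemokine CXCL16 from 28.1 and 19.7 to 13 and 11.9 CPM. CXCL1 and CXCL5, neutrophil attractants, rose from 98.8 and 82.9 to 252 and 147 CPM and from 385 and 433 to 638 and 542 CPM. CXCL1 lost its call under 5 alternatives (0.70 without ACBI1 replicate 1), and CXCL5 without DMSO replicate 1 (0.44) and without ACBI1 replicate 1 (0.409). CXCL8, of the same kind, was at 929 and 643 CPM with DMSO and at 735 and 358 CPM with ACBI1, groups that overlap (adjusted p 0.3). CXCL8's log2 fold change of -0.53 was -1.13 and called without ACBI1 replicate 1, and -0.097 without replicate 2. Under a replicate block CXCL8 was at -0.592 and called (adjusted p 0.00191).

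Of the NF-kB subunits and feedback genes 7 of 21 rose and 2 fell. BIRC3, an apoptosis inhibitor and NF-kB target, went from 100 and 124 to 736 and 841 CPM (2.82 ± 0.15, adjusted p 1.23e-06). The subunits NFKB2, RELB and NFKB1 rose by 0.84, 0.83 and 0.47 on the log2 scale. The number risen became 4 when either DMSO replicate 1 or ACBI1 replicate 2 was left out. The rise of BIRC3 and NF-kB subunit transcripts stood beside the fall of IL1B, IL1A and CSF3 in the same libraries.

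The AP-1 list holds leucine zipper proteins that bind enhancers, some of which, such as JUN and FOSL1, act downstream of MAPK signalling. Its genes changed in both directions. Of 15 tested 5 fell and 3 rose (33.3% and 20%, where 17.4% and 17.5% of all genes did), and 1 rose without ACBI1 replicate 2. FOSL1 fell from 294 and 239 to 161 and 107 CPM (-0.99 ± 0.18, adjusted p 0.00286) and MAFK from 207 and 208 to 129 and 133 CPM. JUN was at 980 and 581 CPM with DMSO and 290 and 432 CPM with ACBI1 (-1.11 ± 0.27, adjusted p 0.0173), a call that was lost without ACBI1 replicate 1 (-0.85), with no filter on low counts and under a replicate block (adjusted p 0.116). JUN was at -0.692 without DMSO replicate 1. JUNB rose from 488 and 395 to 775 and 800 CPM.

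MAPK feedback targets, which report the output of the kinase cascade, had 5 of 18 risen and 5 fallen (27.8% each, against 17.5% and 17.4% of all genes). In the fits with 1 library left out 3 to 6 rose and 3 to 5 fell. The MAPK phosphatases DUSP5 and DUSP4 and the ephrin receptor EPHA2 fell, with log2 fold changes of -1.64, -1.25 and -0.77. SPRY1, ETV4 and PHLDA1 rose by 0.92, 0.85 and 0.70. Of 14 ERBB receptors and ligands 6 rose and 3 fell. Among the ligands EREG rose from 57.4 and 54.4 to 157 and 172 CPM (1.56 ± 0.09, adjusted p 1.95e-06), NRG1 from 52.1 and 57.8 to 159 and 160 CPM and AREG by 0.87 on the log2 scale. HBEGF fell from 71.7 and 56 to 24.3 and 13.9 CPM (-1.74 ± 0.24) and TGFA by 0.60 on the log2 scale. Ligands of the same receptor family thus changed in both directions.

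**Figure D3:**
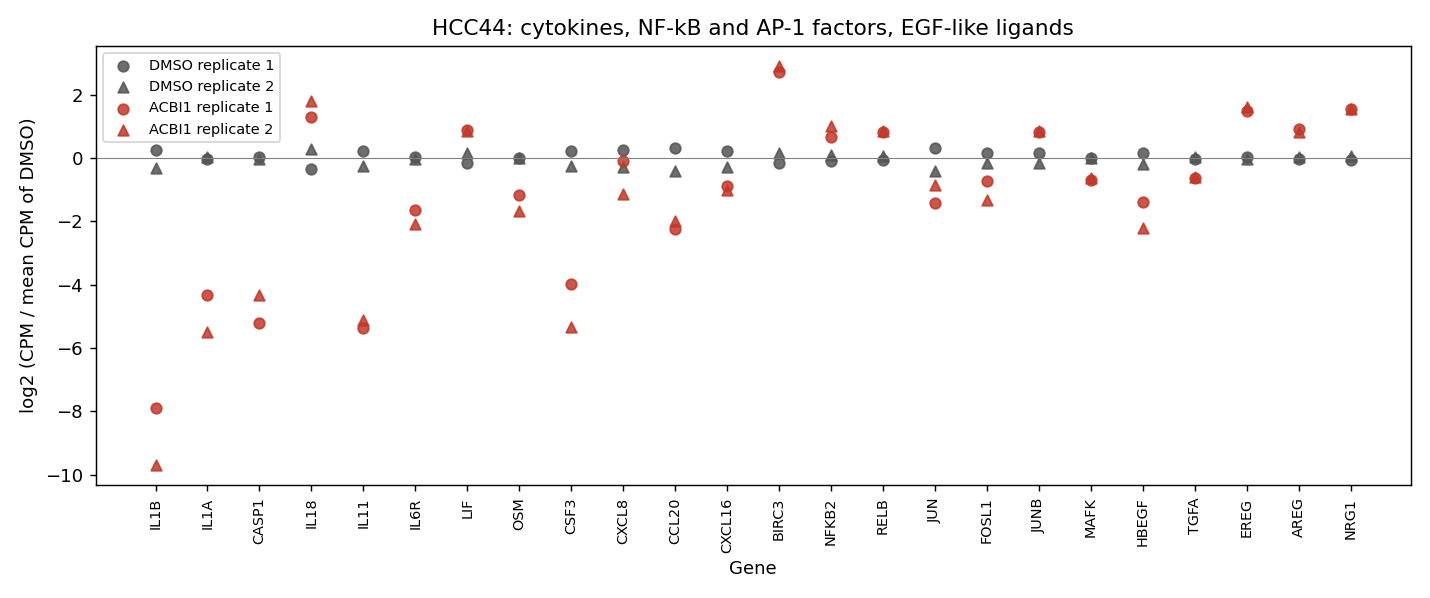
Level in each HCC44 library relative to the DMSO mean, as log2 (CPM / mean CPM of DMSO), for cytokines, NF-kB and AP-1 factors and EGF-like ligands, with grey points for DMSO, red for ACBI1, circles for replicate 1 and triangles for replicate 2. IL1B, IL1A, CASP1, IL11 and CSF3 lie far below the line at 0, BIRC3, EREG and NRG1 above it, and the points of CXCL8 overlap.

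Cell cycle genes rose almost as a block. Of 50 genes of G2 phase and mitosis 47 rose and none fell, and the median was 1.74 on the log2 scale. Of 45 genes of DNA replication and S phase 40 rose and none fell, with a median of 1.04. CCNB1 and CDK1, the cyclin and kinase that start mitosis, went from 11.4 and 16 to 25.4 and 40 CPM and from 10 and 21 to 34.4 and 47.7 CPM. FOXM1, a transcription factor of the mitotic programme, rose from 11.9 and 18.7 to 64.3 and 90.5 CPM (2.34 ± 0.25, adjusted p 0.000329). The kinetochore subunit SPC25 rose by 2.52 and CDC20, an activator of the ubiquitin ligase that ends mitosis, by 2.26.

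Both replicate pairs were uneven for the mitotic genes. Relative to the DMSO mean their median stood at -0.50 and 0.37 in the DMSO libraries and at 1.42 and 1.93 in the ACBI1 libraries, on the log2 scale. For S phase genes the medians were -0.13 and 0.12 with DMSO and 1.05 and 1.01 with ACBI1. Mitotic calls numbered 31 of 50 without ACBI1 replicate 2 and also with no filter on low counts. The calls of PLK1 (1.47, adjusted p 0.0203) and CDK1 (1.40) were lost without ACBI1 replicate 2, at 0.89 and 1.15, and under no filter. PLK1 was not called without DMSO replicate 1 (1.21), nor was CCNB1 (1.02), CDC20 was not called under no filter, and CDK1 stood at 2.04 without DMSO replicate 2.

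The S phase genes named kept their calls under every alternative tried. MCM2, a helicase subunit, rose from 167 and 181 to 265 and 294 CPM, the origin loading factor CDC6 from 32.8 and 43.8 to 81 and 76.3 CPM, and PCNA, the polymerase clamp, from 108 and 113 to 166 and 157 CPM. E2F2, a transcription factor of S phase entry, rose by 2.47 (SE 0.26, adjusted p 0.000136). ORC1, RRM2 and TYMS rose by 1.91, 1.87 and 1.76.

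Mitotic promoters are known for a CCAAT box, bound by NF-Y, and a cell cycle homology region (CHR), bound by the DREAM and MuvB complexes. They were searched in RefSeq promoters of GRCh38.p14, from 250 bases before to 50 after the start site, on both strands, with the letters CCAAT and TTTGAA. Of the 50 mitotic genes 42 had a promoter in the table. Both motifs were present in 25 of these, or 59.5%, against 6.08% of 27305 genes with a promoter (the first listed of each gene), and 23 of the 25 genes were called as risen, as were 16 of the 17 without both. A match is a description of the letters and not evidence of binding. The stretches that hold the nearest pair of motifs are given for 6 risen genes with the largest fold changes among those with both, 5′ to 3′ on the gene's strand, with the motifs in capitals (ATTGG and TTCAAA are the motifs on the other strand).
SPC25, chr2:168890418-168890496, minus strand: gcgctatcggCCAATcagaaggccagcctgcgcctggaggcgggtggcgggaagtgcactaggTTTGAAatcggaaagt
CDCA3, chr12:6851274-6851333, minus strand: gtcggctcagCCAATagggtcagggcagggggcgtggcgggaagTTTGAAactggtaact
CDC20, chr1:43358906-43358940, plus strand: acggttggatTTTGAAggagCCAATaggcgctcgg
KIFC1, chr6:33391767-33391842, plus strand: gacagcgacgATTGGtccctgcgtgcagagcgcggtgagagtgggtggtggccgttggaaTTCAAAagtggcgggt
KIF4A, chrX:70290036-70290085, plus strand: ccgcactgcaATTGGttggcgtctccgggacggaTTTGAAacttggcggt
CENPA, chr2:26785916-26786053, plus strand: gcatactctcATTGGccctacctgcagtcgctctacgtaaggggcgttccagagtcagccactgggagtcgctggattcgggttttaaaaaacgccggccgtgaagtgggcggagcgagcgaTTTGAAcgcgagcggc

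Of 17 CDK inhibitors, cyclins and RB family genes 4 rose and 4 fell, 23.5% each. CDKN1A, which blocks CDK2 and is a p53 target, fell from 145 and 109 to 72.5 and 60.2 CPM (-0.94 ± 0.18, adjusted p 0.00372). CDKN1B, of the same inhibitor family, fell from 44 and 45.3 to 32.4 and 34.8 CPM, and was not called without DMSO replicate 2 (-0.387) or without ACBI1 replicate 1 (-0.358). Of the inhibitors of CDK4 and CDK6, CDKN2B rose from 60.5 and 72.8 to 209 and 304 CPM (1.94 ± 0.17), CDKN2C by 1.42 and CDKN2A by 0.69 on the log2 scale. Of the 17 genes 1 fell when DMSO replicate 2 was left out. Of 23 p53 targets 4 rose and 6 fell, with a median of 0.008. The risen share, 17.4%, is that of all genes, and 2 rose without DMSO replicate 1 and 7 with the replicate block. GDF15, a stress cytokine and p53 target, fell from 172 and 185 to 35.2 and 43.5 CPM (-2.18 ± 0.13, adjusted p 1.36e-06).

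Of 19 BCL2 family genes 8 fell and 6 rose, and 5 and 4 fell when DMSO replicate 1 and 2 were left out in turn. The survival genes MCL1 and BCL2L1 fell from 932 and 799 to 531 and 476 CPM and from 123 and 116 to 63.1 and 61.4 CPM. The linker BID, which promotes death, fell by 0.72 on the log2 scale, and the survival gene BCL2 rose from 5.14 and 4.61 to 12.1 and 8.95 CPM. Protective and death-promoting members were found on both sides.

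Genes of the unfolded protein response fell as a group. This response raises chaperones and degradation factors of the endoplasmic reticulum through ERN1 (IRE1) and XBP1, ATF6 and PERK. Of 20 tested genes 18 fell and none rose, the median log2 fold change was -0.59, and the median relative to the DMSO mean was -0.55 and -0.72 in the ACBI1 libraries. The sensor ERN1 fell from 174 and 193 to 76 and 87.3 CPM (-1.17 ± 0.14, adjusted p 0.000117) and XBP1 from 462 and 425 to 281 and 229 CPM. SEL1L, an adaptor of ER-associated degradation, CANX, the lectin chaperone calnexin, and HSP90B1, an ER chaperone, fell, with log2 fold changes of -1.16, -0.97 and -0.95. The number fallen was 11 without DMSO replicate 2.

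HSPA5, the abundant ER chaperone BiP, was one of the 2 genes not called. HSPA5 stood at 3182 and 3289 CPM with DMSO and at 3144 and 2007 CPM with ACBI1 (adjusted p 0.259), and was called without ACBI1 replicate 1 (-0.687). ACBI1 replicate 1 was close to the DMSO libraries and replicate 2 well below them.

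The ER stress response element (ERSE) is the known site of ATF6 and XBP1 with NF-Y. It was searched as CCAAT, any 9 bases and CCACG, on both strands of the same promoters, so that each match also holds a CCAAT box. It was present in 6 of the 20 list genes, or 30%, against 22 of 27305 genes, or 0.0806%. Of these 6 genes 5 were called as fallen and HSPA5 was not. The element is given in capitals, with 15 bases on each side, 5′ to 3′ on the gene's strand.
HSPA5, chr9:125241376-125241424, minus strand: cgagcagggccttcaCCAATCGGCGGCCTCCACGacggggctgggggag
XBP1, chr22:28800588-28800636, minus strand: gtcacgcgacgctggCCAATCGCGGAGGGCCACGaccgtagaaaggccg
HSP90B1, chr12:103930306-103930354, plus strand: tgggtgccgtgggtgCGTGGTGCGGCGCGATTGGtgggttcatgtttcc
CALR, chr19:12938369-12938417, plus strand: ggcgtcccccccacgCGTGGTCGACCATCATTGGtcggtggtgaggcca
CANX, chr5:179698763-179698811, plus strand: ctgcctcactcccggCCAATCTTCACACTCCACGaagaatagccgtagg
CRELD2, chr22:49918539-49918587, plus strand: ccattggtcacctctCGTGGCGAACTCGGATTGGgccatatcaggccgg

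The ATF4 branch of stress signalling fell in part. Of 27 tested genes 12 fell and 2 rose (median -0.21), and 6 rose with library totals. NUPR1, a stress-induced chromatin protein, went from 7.03 and 6.83 to 0.368 and 0.708 CPM (-3.68 ± 0.28), and SHMT2, a mitochondrial serine enzyme, from 316 and 350 to 146 and 160 CPM. DDIT3, the stress factor CHOP, fell by 0.51 on the log2 scale. ATF4 itself was at 671 and 635 CPM and at 635 and 584 CPM (adjusted p 0.439).

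**Figure D4:**
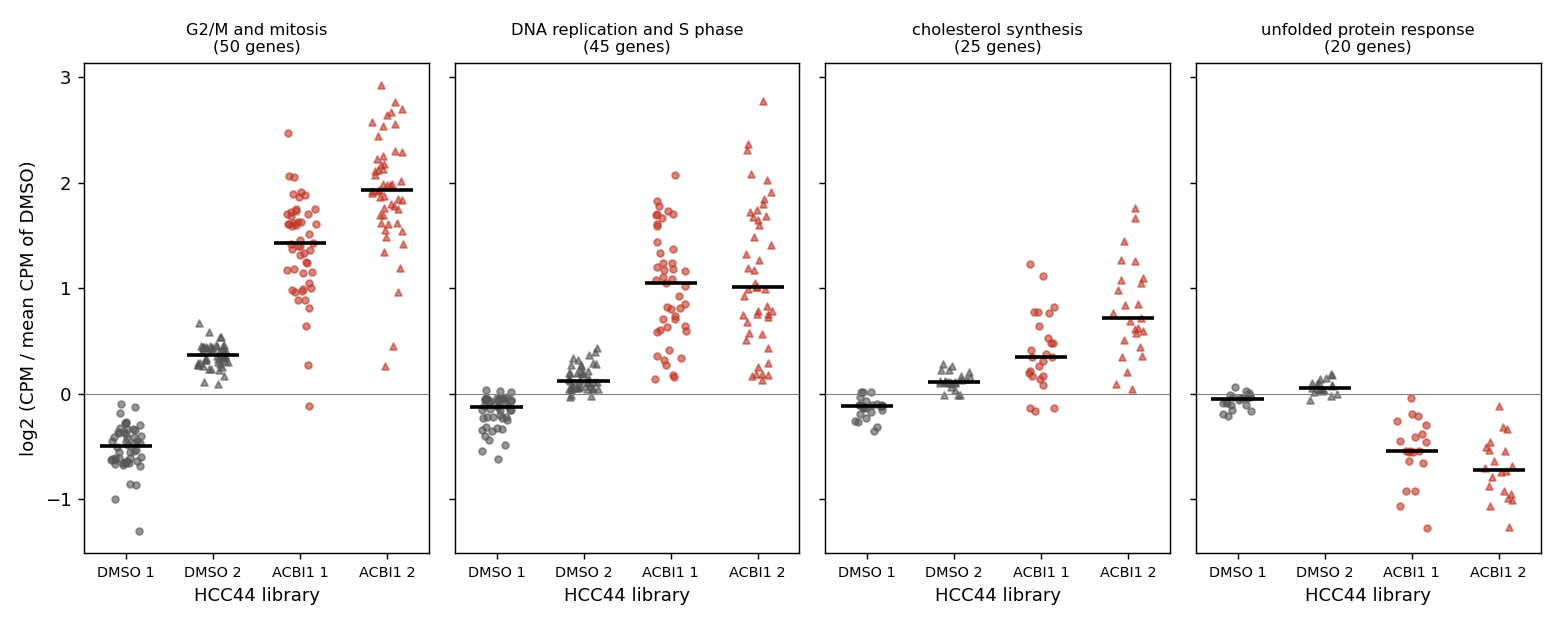
Level of each gene of 4 lists in each HCC44 library, as log2 (CPM / mean CPM of DMSO), with 1 point per gene and a black bar at the median of the list. Mitotic and S phase genes stand above 0 with ACBI1, with mitotic medians of 1.42 and 1.93, cholesterol synthesis genes less so, and unfolded protein response genes below 0, with medians of -0.55 and -0.72.

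Cholesterol synthesis genes rose. Of 25 tested 16 rose and none fell, with a median of 0.60. FDPS, which makes farnesyl diphosphate, rose from 250 and 298 to 644 and 931 CPM (1.52 ± 0.16, adjusted p 7.43e-05). ACAT2 and HMGCS1, at the head of the pathway, rose by 1.41 and 1.15, and IDI1 and DHCR7 by 1.04 and 0.94. The list had 8 risen genes when DMSO replicate 1 was left out and 9 when ACBI1 replicate 2 was, and its per-library median was 0.35 and 0.72 in the ACBI1 replicates. The sterol regulatory element, searched as TCAC, any base and CCAC on both strands, was in 1 of 18 promoters matched, or 5.56%, and in 1.15% of all genes.

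Fatty acid genes were mixed, with 6 of 19 risen and 4 fallen. Only 1 rose when DMSO replicate 1 was left out, and 3 when ACBI1 replicate 2 was. FASN, fatty acid synthase, went from 519 and 621 to 875 and 1567 CPM (1.10 ± 0.24, adjusted p 0.00915) and lost its call without DMSO replicate 1 (0.97) and with no filter. The desaturase FADS2 rose by 1.06. FADS3, its neighbour in sequence family, fell from 104 and 107 to 17.7 and 24.3 CPM (-2.32 ± 0.14), and the acyl-CoA synthetase ACSL5 by 2.22.

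Glycolysis and hypoxia genes fell, 18 of 32 with 2 risen (median -0.27). P4HA2, a collagen prolyl hydroxylase, went from 103 and 97.8 to 31.5 and 29.1 CPM (-1.73 ± 0.09, adjusted p 7.41e-07). BNIP3, a mitophagy receptor, SLC16A3, a lactate exporter, and SLC2A1, a glucose importer, fell, with log2 fold changes of -1.24, -0.99 and -0.80.

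Of 29 NRF2 targets, which serve antioxidant defence, 14 rose and 5 fell (median 0.29). PIR rose from 3.5 and 4.34 to 33.4 and 30.2 CPM (3.02 ± 0.17, adjusted p 1.32e-06). TXNRD1, thioredoxin reductase, went from 717 and 867 to 1825 and 1465 CPM. TRIM16L, HMOX1, NQO1 and GCLM rose by 1.55, 1.34, 0.86 and 0.67. The NRF2 targets named are all risen ones, and the fold changes of the list ran from -2.96 to 3.02 on the log2 scale. The fallen count was 3 without DMSO replicate 2. Of 8 genes listed as metallothioneins, which bind zinc and copper, and a zinc transporter, 5 rose and 1 fell. The risen were all metallothioneins, among them MT1A from 3.93 and 5.06 to 28 and 36 CPM, and MT2A and MT1E by 1.40 and 1.27. The antioxidant response element, searched as TGAC, any 3 bases and GC on both strands, was in 6 of 21 NRF2 target promoters matched, or 28.6%, and in 13.6% of all genes.

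A pair of housekeeping groups had few calls. None of 13 mitochondrially encoded genes was called in either direction, with fold changes from -0.12 to 0.29 on the log2 scale, and up to 3 rose under the alternatives. Of 76 cytosolic ribosomal protein genes 2 rose and 7 fell, shares of 2.63% and 9.21% that lie below the 17.5% and 17.4% of all genes. Their fold changes ran from -0.39 to 0.42, and with library totals 6 rose and 2 fell. Between 1 and 16 fell over the alternatives tried.

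**Figure D5:**
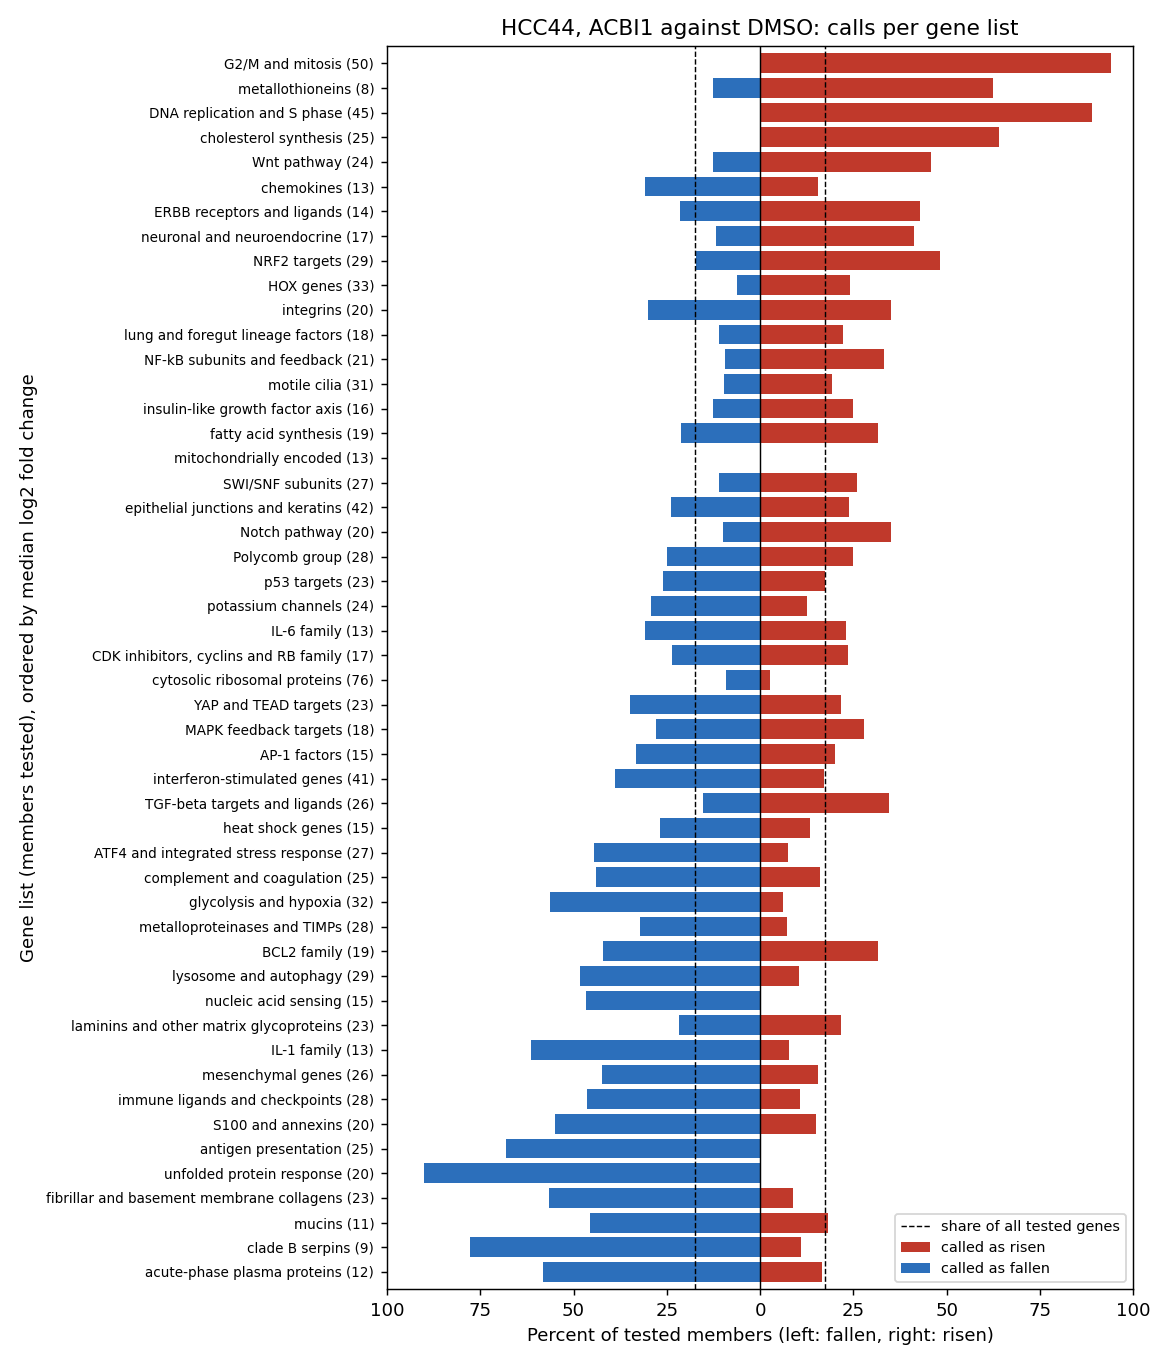
Percent of the tested members of each of 50 gene lists that were called as risen (red, right) or fallen (blue, left) in HCC44, ordered by the median log2 fold change, with the number tested in brackets and dashed lines at the shares over all tested genes, 17.5% and 17.4%. Mitotic and S phase genes have the longest red bars, at 94% and 88.9%, and the unfolded protein response the longest blue bar, at 90%.

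Collagen genes fell more often than they rose. Of 23 tested 13 fell and 2 rose (median -0.63). COL13A1, a transmembrane collagen, went from 34.4 and 40 to 2.69 and 3.84 CPM (-3.51 ± 0.20, adjusted p 1.14e-06) and COL16A1 from 37.5 and 34.1 to 3.28 and 4.39 CPM. COL7A1, the anchoring fibril collagen, and COL4A2, of basement membranes, fell by 1.73 and 1.05. COL1A1, a fibrillar collagen, rose from 89.5 and 71.1 to 200 and 404 CPM (1.91 ± 0.36), at 1.32 without ACBI1 replicate 2 and not called with no filter. The 7 fibroblast markers summed to 74.4 to 92.7 CPM with DMSO and 207 to 411 CPM with ACBI1, almost wholly COL1A1, with DCN at 0 in all 4 libraries and COL1A2 at 0.111 CPM or less.

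Calls among laminins and other matrix glycoproteins had no such tilt, with 5 of 23 risen and 5 fallen, 21.7% each. The median of this list was still negative, at -0.38, and lay between -0.59 and -0.007 under the alternatives. AGRN (-1.84) was among the fallen. LAMB3, a subunit of an epithelial laminin, fell from 1069 and 908 to 587 and 351 CPM. FN1 (fibronectin) rose by 1.90 on the log2 scale and THBS1 (thrombospondin) from 79.5 and 54.4 to 190 and 174 CPM. Integrins were split 7 risen to 6 fallen of 20, with 4 risen in the fit lacking DMSO replicate 1. The laminin receptor subunit ITGA3 fell from 555 and 653 to 201 and 225 CPM and the leukocyte integrin subunit ITGB2 from 172 and 165 to 57.7 and 63.3 CPM, while ITGB5 rose by 1.08. ITGB2 was present although PTPRC, the pan-leukocyte marker, was at 0.048 CPM or less.

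Clade B serpins, intracellular protease inhibitors, mostly fell. Of 9 tested 7 fell and 1 rose, including SERPINB5 (-1.63) and SERPINB9 (-1.03). Of 28 metalloproteinases and TIMPs 9 fell and 2 rose, and 4 fell without ACBI1 replicate 1. TIMP1, an inhibitor of metalloproteinases, went from 518 and 529 to 194 and 146 CPM (-1.62 ± 0.13) and TIMP4 from 27.6 and 24.7 to 3.09 and 1.78 CPM. Of 25 complement and coagulation genes 11 fell and 4 rose, and 2 rose when DMSO replicate 1 was left out. PLAUR, the urokinase receptor, went from 134 and 136 to 34 and 30.7 CPM and PLAT, tissue plasminogen activator, from 7.66 and 7.19 to 0.64 and 0.991 CPM.

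Of 11 mucins 5 fell and 2 rose. MUC4 went from 55.1 and 54.8 to 5.44 and 7.27 CPM (-3.11 ± 0.17, adjusted p 7.73e-07) and MUC5B, a gel-forming airway mucin, from 15.8 and 15.4 to 1.78 and 1.95 CPM. MUC1 rose from 2.65 and 3.15 to 10.6 and 15.8 CPM. LCN2, an iron-binding acute-phase protein, went from 596 and 397 to 53.8 and 17.4 CPM (-3.80 ± 0.60, adjusted p 0.00271), at -4.83 without ACBI1 replicate 1 and -3.21 without replicate 2. SERPINA1, the elastase inhibitor of plasma, had a log2 fold change of -2.91, S100P -1.94 and S100A16 -1.84. Of 20 S100 and annexin genes 11 fell and 3 rose, with 1 to 6 risen under the alternatives. Of 12 acute-phase genes 7 fell and 2 rose, one of them CP.

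Epithelial state genes gave no single direction, while mesenchymal genes fell more often than they rose. Of the mesenchymal genes tested 42.3% fell and 15.4% rose, with a median of -0.49 on the log2 scale. Of 42 epithelial junction and keratin genes 10 rose and 10 fell, and 6 rose when DMSO replicate 2 or ACBI1 replicate 2 was left out. KRT7 and EPCAM rose by 1.09 and 0.84, and KRT17, a basal keratin, and KRT8 had log2 fold changes of -2.37 and -0.52. Of 26 mesenchymal genes 11 fell and 4 rose (1 without DMSO replicate 1, and 1 without ACBI1 replicate 2), with AXL, a receptor kinase, and SNAI2, a repressor of epithelial genes, at log2 fold changes of -1.24 and -1.37.

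Signalling and lineage lists held risen and fallen genes. Of 26 TGF-beta targets and ligands 9 rose and 4 fell, with 5 risen without ACBI1 replicate 2 and 11 fallen with the replicate block. TGFB2 rose from 34.7 and 43.3 to 177 and 190 CPM (2.24 ± 0.12, adjusted p 8.84e-07), and ID2 and ID1, inhibitors of helix-loop-helix factors, by 2.41 and 1.25. Of 24 Wnt pathway genes 11 rose and 3 fell: WNT10B went from 0.779 and 0.502 to 6.45 and 7.25 CPM and WNT7B from 18.4 and 15.5 to 3.52 and 4.4 CPM. DNER, a Notch-like ligand of neurons, went from 5.99 and 9.03 to 25.2 and 65 CPM (2.58 ± 0.43), at 1.74 without ACBI1 replicate 2. Of 17 neuronal genes 7 rose and 2 fell. SNAP25, of the synaptic fusion machinery, rose by 2.95 and by 2.32 without ACBI1 replicate 2.

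Of 20 Notch pathway genes 7 rose and 2 fell, and the effector HES1 rose by 0.99. Of 18 lung and foregut lineage factors 4 rose and 2 fell, 22.2% and 11.1% against 17.5% and 17.4% of all genes. FOXA1 and GATA6, pioneer factors of foregut epithelium, rose by 1.04 and 0.92. KLF5 and FOXP1, other epithelial factors, fell from 65.8 and 53.7 to 43 and 36 CPM and from 43.4 and 43.8 to 30 and 32 CPM, and KLF5 was not called without DMSO replicate 1 (-0.448). Of 33 HOX genes 8 rose and 2 fell, HOXA5 from 16.5 and 12.9 to 40.3 and 42.7 CPM and HOXB9 from 121 and 111 to 65 and 44.8 CPM, and 4 rose without DMSO replicate 2 and 5 without ACBI1 replicate 2. IGFBP7, which binds insulin-like growth factors, fell from 65 and 68.8 to 11.6 and 12.1 CPM (-2.49 ± 0.14).

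Antigen presentation genes fell without exception among those called, 17 of 25. CIITA, the master regulator of class II genes, went from 15.2 and 14 to 3.35 and 3.38 CPM (-2.12 ± 0.16), NLRC5, its class I counterpart, from 20.9 and 21.5 to 6.71 and 8.92 CPM, and PSMB10, an immunoproteasome subunit, from 16.2 and 18.7 to 4.19 and 4.52 CPM. HLA-B and B2M, parts of class I complexes, had log2 fold changes of -1.20 and -0.87.

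Of 41 interferon-stimulated genes 16 fell and 7 rose. The fallen share was 39% against 17.4% of all genes, and the risen share, 17.1%, was near the 17.5% of all genes. MX2 and XAF1 fell from 5.5 and 7.04 to 0.976 and 1.21 CPM and from 4.9 and 5.77 to 0.784 and 1.04 CPM. OAS3 and IFI35 rose from 26.3 and 36.4 to 65.5 and 79.9 CPM and from 15 and 14.3 to 31.1 and 30 CPM. The median of the list relative to the DMSO mean was -0.55 in ACBI1 replicate 1 and -0.10 in ACBI1 replicate 2, and 4 members rose when either DMSO replicate was left out. Among nucleic acid sensors 7 of 15 fell and none rose. IFI16, a nuclear DNA sensor, went from 202 and 205 to 61.7 and 55.7 CPM (-1.79 ± 0.10, adjusted p 1.02e-06), and STING1, an adaptor of DNA sensing, fell by 0.67.

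Of 28 immune ligand and checkpoint genes 13 fell and 3 rose. The ligands of the NK cell receptor NKG2D diverged: ULBP1 rose from 12.6 and 12 to 40.7 and 35.1 CPM and MICA by 0.77 on the log2 scale, while ULBP2 fell from 18.5 and 17 to 5.39 and 4.8 CPM. The checkpoint ligand PDCD1LG2 went from 18.4 and 17.3 to 4.48 and 1.43 CPM, a log2 fold change of -2.60 that became -3.64 when ACBI1 replicate 1 was left out and -1.995 when replicate 2 was. ICOSLG, a costimulatory ligand, rose from 1.73 and 1.16 to 8.85 and 9.79 CPM.

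The response was set against that of H1975 by testing the difference itself in the same model. It was called for 3967 genes, or 18.6% of those tested. Of the 12 largest rises in HCC44 the difference was called for 8, and of the 12 largest falls for 9. These genes were picked by their HCC44 change, which is part of the difference. The counts therefore cannot show that the largest changes are particular to HCC44. Of the 50 mitotic and 45 S phase genes the difference was called, with the more positive change in HCC44, for 60. Of the 20 unfolded protein response genes the difference was called for 4, a share near the 18.6% of all tested genes. ERN1 (-1.38) and CANX (-0.62) were among these 4. Several named genes fell in HCC44 with a more positive change than in H1975, among them COL7A1 (1.95), ACSL5 (1.43), MX2 (2) and XAF1 (1.51).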

How the data were processed

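Total RNA of H1975 and HCC44 cells was sequenced, and the authors deposited 1 table of raw read counts per gene name for each library. TopHat2 2.1.1, HTSeq 0.11.0 and the build hg38 are listed per the submitters' processing notes, and the annotation and strand setting are not given in the sources used here. The 5 summary rows, 14.6 to 15.1% of each HCC44 table, were left out. Genes passing filterByExpr, given the 4 groups, were scaled with TMM and fitted in edgeR 4.0.16 (R 4.3.3) with a mean per group over all 8 libraries (4 residual degrees of freedom, common biological coefficient of variation 0.123), since 2 libraries against 2 leave few. The procedure was run on 1 random draw of simulated counts, with the fitted spread and far fewer changed genes than were called here. That draw checked the recovery and sign of large set changes, and not the rate of false calls in these data. Replicates differed by more than sampling noise (chi-square per degree of freedom 21.7 and 40.9). Genes were named by rule: the 12 largest rises and falls among called genes with at least 5 CPM and non-overlapping groups, the 6 largest gains and losses in CPM, and in each list its first 3 genes and up to 5 called members per direction. Some were left out for length, and some items are not reported here. CALR, CRELD2, CDCA3, KIFC1, KIF4A and CENPA are named by their promoters. The members, 50 gene lists and 5 marker lists were chosen with earlier results of these data known. Alternatives were DESeq2 1.42.0, other scalings, filters and dispersions, HCC44 alone, a replicate block and each HCC44 library left out. Promoter sequences are from RefSeq (GRCh38.p14). Figures were drawn with matplotlib 3.10.9.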

Additional observations from a re-analysis of the deposited data

Results flagged for a closer look

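The response to ACBI1 differed between HCC44 and H1975, by the test of the difference itself, for 3967 of the tested genes and for 123 of the 194 named genes. Values are HCC44 minus H1975 on the log2 scale, so a positive value is a more positive change in HCC44. No value here was weighed further. For the named genes 79 values are positive and 44 negative.

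Among chromatin genes the differences were 0.74 for SMARCA2, 1.47 for ARID1B, 0.59 for ARID2, 1.03 for SMARCC2, 0.49 for BCL7C, -0.50 for ACTL6A, -0.62 for DPF2 and 3.21 for CHD5. Among abundant genes they were -0.58 for SLC1A5, -0.54 for P4HB, 1.86 for FTL, 2.22 for FTH1, 0.91 for ACTG1, 1.73 for SQSTM1 and 3.62 for KRT81.

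Among the largest falls they were -4.85 for SERPINB7, -4.42 for C3AR1, -4.69 for ADGRG3, -4.37 for CST7, -5.08 for PNPLA1, -2.85 for AGT, -2.66 for PINLYP, -2.09 for IL11 and -7.44 for MUC13. Among the largest rises they were 4.46 for ITGA10, 5.19 for SPTSSB, 2.92 for CCDC74B, 1.16 for OLFM2, 2.89 for CCDC74A, 4.23 for ARL14 and 2.98 for GLI1.

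Cytokine and receptor genes had -1.57 for IL6R, -3.51 for OSM, 0.72 for CLCF1, -2.55 for CXCL16, -0.83 for CXCL5, 1.16 for BIRC3, 1.93 for EREG, 1.99 for AREG and 1.67 for NRG1. Genes of the AP-1 list and feedback genes of MAPK signalling had 1.06 for JUNB, -1.02 for MAFK, -0.92 for DUSP5, -0.95 for EPHA2, 0.46 for ETV4 and 0.90 for PHLDA1.

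Cell cycle genes had 1.77 for CCNB1, 1.96 for PLK1, 2.22 for SPC25, 2.02 for FOXM1, 2.49 for CDC20, 1.21 for CDC6, 0.63 for PCNA, 1.24 for E2F2, 1.13 for TYMS, 1.90 for ORC1 and 2.06 for RRM2. The inhibitors CDKN2B and CDKN2C had 2.47 and 1.59. GDF15 had -1.75, BCL2L1 -0.55 and BID -1.66.

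Stress genes had -1.38 for ERN1, -0.62 for CANX, -0.44 for HSP90B1 and -0.58 for DDIT3. Lipid genes had 1.54 for HMGCS1, 1.33 for FDPS, 1.41 for ACAT2, 0.83 for IDI1, 1.46 for FADS2, -0.91 for FADS3 and 1.43 for ACSL5. Other metabolic genes had -1.35 for P4HA2, -1.04 for BNIP3, 1.60 for NQO1, 0.98 for GCLM, 1.19 for TXNRD1, 1.45 for PIR, 2.34 for TRIM16L, 2.07 for MT2A, 1.83 for MT1A and 2.16 for MT1E.

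Matrix and adhesion genes had 3.04 for COL1A1, 1.95 for COL7A1, -3.02 for COL13A1, -0.91 for COL16A1, 3.66 for FN1, 2.83 for THBS1, -2.38 for ITGB2, 1.47 for ITGB5, -1.30 for TIMP1, -1.81 for TIMP4 and -1.03 for PLAUR. Epithelial genes had -4.13 for MUC4, -3.34 for MUC5B, 2.04 for MUC1, 0.99 for EPCAM, 0.56 for KRT8, 2.16 for KRT7 and -0.90 for S100A16.

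Signalling and lineage genes had 2.08 for TGFB2, 1.39 for ID1, 2.28 for ID2, 2.20 for WNT10B, -0.77 for WNT7B, 5.68 for DNER, 1.44 for HES1, 2.64 for SNAP25, 1.78 for FOXA1, 1.74 for GATA6, 1.46 for HOXA5 and -2.81 for HOXB9. Immune genes had 2.37 for OAS3, 2.01 for IFI35, 1.51 for XAF1, 2 for MX2, -0.59 for HLA-B, -0.81 for CIITA, 0.76 for ULBP1, -0.91 for ULBP2, 1.16 for ICOSLG and 0.72 for STING1.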

How the results depend on the processing

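Of the 194 named genes, 178 kept their direction and their side of the threshold under all 13 alternatives fitted, 12 were no longer called under at least 1, 2 were called only under an alternative and 2 reversed. The reversals were SMARCA2 (-0.127 to 0.213 when 1 library was left out, lowest without ACBI1 replicate 1) and SMARCA4 (-0.001 to 0.199, lowest without ACBI1 replicate 2), neither called. Leaving out 1 HCC44 library at a time gave 4945 to 6629 calls in HCC44 and 2341 to 4134 calls for the difference between the lines, and the lone library left in a group was assumed to vary like the others. Calls in HCC44 numbered 4681 at an adjusted p under 0.01 and 3137 with a change of at least 1 on the log2 scale. The other alternatives gave counts within 1.5 times of 7438 and 3967, except the replicate block for the difference, with 6358. With the replicate block 9533 genes were called in HCC44, 7423 of them shared with the 7438. The labels give equal numbers but no shared batch, and same-numbered HCC44 libraries deviated with a correlation of 0.109 over genes, so the numbers were not taken as pairs. The median kept its sign in 36 of the 50 lists under all alternatives, and in 14 it did not; the causes were not tested. Library totals gave 1723 of 4253 differences between the lines as more positive in HCC44, or 40.5%, against 54.9% with TMM factors.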
